A study of Mus musculus with 6 samples.

Results

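The natriuretic peptide system of the heart was followed between postnatal day 14 (P14) and postnatal day 1 (P1) through 6 genes, taken by symbol from a count table of 14495 genes. They are the hormone genes Nppa and Nppb, the receptors Npr1, Npr2 and Npr3, and Corin, and each symbol matched 1 row. The samples were ventricles of male C57BL/6 mice, untreated, with no transgene or mutation named, and each age had 3 poly(A)-selected mRNA libraries, each made from 3 pooled hearts (9 hearts per age). By protocol the atria were cut away and the septum kept with the ventricles, but the tissue label reads left ventricle. The pools are the replicates, and differences between single hearts within a pool cannot be seen.

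Nppa encodes atrial natriuretic peptide (ANP) and Nppb encodes brain natriuretic peptide (BNP), hormones that cardiomyocytes secrete when the wall is stretched and that promote salt excretion and relax blood vessels. Both are made in the fetal ventricle and decline after birth, and they return in the stressed adult ventricle. Corin, a serine protease of the cardiomyocyte surface, cuts the ANP precursor into the active hormone. Npr1 is the receptor for ANP and BNP and makes cyclic GMP (cGMP) with its own guanylyl cyclase domain, Npr2 does the same for C-type natriuretic peptide, and Npr3 has no cyclase domain and clears the peptides from outside the cell.

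At P14 the transcripts of the hormones and of the clearance receptor were lower and those of the signalling receptors and of the processing enzyme were higher. Nppb fell 4.80-fold, Nppa fell 2.69-fold and Npr3 fell 2.54-fold, while Npr2 rose 2.42-fold, Npr1 rose 1.82-fold and Corin rose 1.81-fold (fitted folds, n = 3 libraries per age). Rose and fell are used of genes whose adjusted p, from the quasi-likelihood test of edgeR over all 14301 genes tested, was under 0.05. Of the 6 genes 3 rose and 3 fell, where 43.8% of all genes tested passed, 21.8% rising and 22.0% falling. In all 6 genes the P14 libraries did not overlap the P1 libraries, as was the case in 54.8% of all genes tested. All genes tested had a median log2 fold change of −0.01, or of −0.47 with libraries scaled to their totals and nothing else (library totals alone). The counts behind the values ran between 963 and 3410 per library at P14 and between 4997 and 17769 at P1 for the hormones, and were lowest for Npr3, at 70 to 149 at P14 and 142 to 554 at P1. Scaling by totals alone took the share of rises among called genes to 22.5%, against 49.7% with the scaling used here, the trimmed mean of M-values (TMM).

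Library totals ran between 9104230 and 15725993 counts at P14 and between 5916557 and 17353933 at P1. P1 replicate 2 stood apart by base composition: in the 25% of genes with the highest GC content its log2 values lay a median of 0.40 below the P1 mean, against 0.26 and 0.16 above it in P1 replicates 1 and 3. The P14 libraries stayed within −0.03 to 0.06 in those genes. P14 replicate 1 also differed from its group: the chi-square of the counts per degree of freedom, which grows with depth, was 91.7 and 121 against P14 replicates 2 and 3 and 12.4 between those, and 92.2 to 179 among the P1 libraries. The mitochondrial share of counts was 12.3%, 20.5% and 25.2% in P14 replicates 1 to 3, against 13.0%, 17.2% and 22.4% in P1 replicates 1 to 3. Of 10 cardiomyocyte markers 6 rose and 4 did not pass, among them the ventricular myosin light chain Myl2, which averaged 29479 CPM at P14 and 20783 CPM at P1 (CPM, counts scaled to a common library size after TMM). Myl2 was thus abundant in all libraries of both ages. In bulk tissue, fewer cells of a type and less RNA per cell cannot be told apart.

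Nppb and Nppa lie side by side on the plus strand of chromosome 4 (build GRCm38, GENCODE M21). Nppb (ENSMUSG00000029019) runs from 147985788 to 147987205 and Nppa (ENSMUSG00000041616) from 148000722 to 148002079, with 13516 bases between them. Their promoters are shown because the neighbours fell together and both are textbook targets of cardiac transcription factors. The 250 bases before the RefSeq start of each gene (GRCm38.p6, plus strand) follow, for Nppa chr4:148000472-148000721 and for Nppb chr4:147985650-147985899, with capitals for matches to the motifs listed after them.
Nppa: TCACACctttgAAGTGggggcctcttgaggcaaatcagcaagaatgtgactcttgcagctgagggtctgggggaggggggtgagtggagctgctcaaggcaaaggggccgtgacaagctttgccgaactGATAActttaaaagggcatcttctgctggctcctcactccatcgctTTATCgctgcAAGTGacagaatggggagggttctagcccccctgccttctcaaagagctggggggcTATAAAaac
Nppb: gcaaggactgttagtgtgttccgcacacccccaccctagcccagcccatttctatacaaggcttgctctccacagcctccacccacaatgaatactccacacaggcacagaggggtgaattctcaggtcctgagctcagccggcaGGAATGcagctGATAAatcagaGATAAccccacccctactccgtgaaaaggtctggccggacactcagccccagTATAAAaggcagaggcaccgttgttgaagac
The motifs were GATAA for GATA factors, AAGTG for NKX2-5, TCACAC for T-box factors and CATTCC for TEAD factors, each on both strands, and TATAAA for the TATA box on the plus strand.

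The Nppa window held 2 GATAA matches, at 121 and 75 bases before the start and on opposite strands, 2 AAGTG matches, 1 TCACAC match at its far end and 1 TATAAA match. The Nppb window held 2 GATAA matches on the plus strand, at 94 and 83 bases before the start, 1 CATTCC match read on the minus strand and 1 TATAAA match. The TATAAA match began 9 bases before the start in Nppa and 31 bases before it in Nppb. All distances are from the RefSeq starts, whose accuracy was not tested. Among 27018 promoter windows of the same length, 23.0% held GATAA, 40.8% AAGTG, 12.2% TCACAC, 12.6% CATTCC and 8.12% TATAAA. None of the 5 motifs occurred in the windows of Npr1, Npr2, Npr3 or Corin. A match is a run of letters and was not tested as a binding site. GENCODE places the start of Nppb 112 bases farther upstream than RefSeq does, and the starts of Nppa are the same.

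Nppb had the larger fall of the hormones. Its level was 200.2, 128 and 157 CPM in P14 replicates 1 to 3, against 822, 653 and 858 CPM in P1 replicates 1 to 3. Every P14 library lay far below every P1 library, and the lowest P1 value belonged to replicate 2. The log2 fold change was −2.26 ± 0.23 (SE, edgeR adjusted p = 3.56e-06, n = 3 per age), and 4.43% of all genes tested were called and fell by 4-fold or more. As a share of all counts Nppb held 0.0106% to 0.0181% at P14 and 0.0836% to 0.102% at P1.

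Nppa showed a smaller fall with a wider spread at P1. Its level was 239.99, 193 and 229.6 CPM in P14 replicates 1 to 3, against 617, 324 and 841 CPM in P1 replicates 1 to 3. The P14 libraries were close together, with a coefficient of variation of 11.2%, whereas the P1 libraries had one of 43.7%, with replicate 2 low and replicate 3 high. The log2 fold change was −1.43 ± 0.29 (SE, edgeR adjusted p = 0.00167, n = 3 per age). It was −1.72 without P1 replicate 2 and −1.08 without P1 replicate 3, both still called. When each library was corrected for transcript GC content and length, Nppa stood at 194, 178 and 218 CPM at P14 and at 587, 507 and 835 CPM at P1, with −1.71 on the log2 scale (edgeR adjusted p = 1.65e-06).

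An antisense gene overlaps most of Nppa. Exons of Gm13054, on the opposite strand, cover 532 of the 865 exon bases of Nppa (61.5%). Of the 830 36-base windows of the Nppa transcript, 464 also occur, as read or as reverse complement, in annotated transcripts of other genes. Gm13054 had 67.0%, 76.3% and 72.9% as many reads as Nppa in P14 replicates 1 to 3, against 57.2%, 57.6% and 58.5% in P1 replicates 1 to 3. It fell (−1.12 ± 0.29 on the log2 scale, edgeR adjusted p = 0.00718), and P1 replicate 2 was also its lowest P1 library, at 186 CPM against 353 and 492 CPM. A strand setting of the counting is not stated in the labels, and the value of either gene may hold reads of the other. Nppb shared no 36-base window with another gene.

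Atrial tissue is the richest source of Nppa, so atrial markers are given beside it. Of 9 atrial cardiomyocyte markers tested 4 fell, 1 rose and 4 did not pass, and their summed level was 283 to 431 CPM at P14 and 553 to 1127 CPM at P1. The atrial light chain Myl4, which the fetal ventricle also expresses, fell to 129, 127 and 81.1 CPM at P14, against 665, 271 and 545 CPM at P1. Myl7, the other atrial light chain, had 182, 198 and 103 CPM at P14 and 340.4, 169 and 233 CPM at P1, overlapped between the ages and did not pass (−0.62 ± 0.29 on the log2 scale, edgeR adjusted p = 0.101). With the replicate number as a block Myl7 passed (−0.62, edgeR adjusted p = 0.0285), as it did after the GC and length correction (−0.89, edgeR adjusted p = 0.00317). Among the P1 libraries replicate 2 had the lowest CPM for Nppa, Myl4, Myl7, Bmp10, Stard10 and Kcna5. It had the highest for Gja5, Dkk3 and Nr2f2, while Sln was lowest in replicate 3. Kcna5 was the marker that rose (1.69 ± 0.21 on the log2 scale), and Sln did not pass (0.53 ± 0.33). Bmp10, a peptide of the atrium and of the fetal trabeculae, had 0 counts in all 3 P14 libraries and 88, 65 and 32 counts in P1 replicates 1 to 3. The part of atrial cells in the fall of Nppa was not tested.

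**Figure D1:**
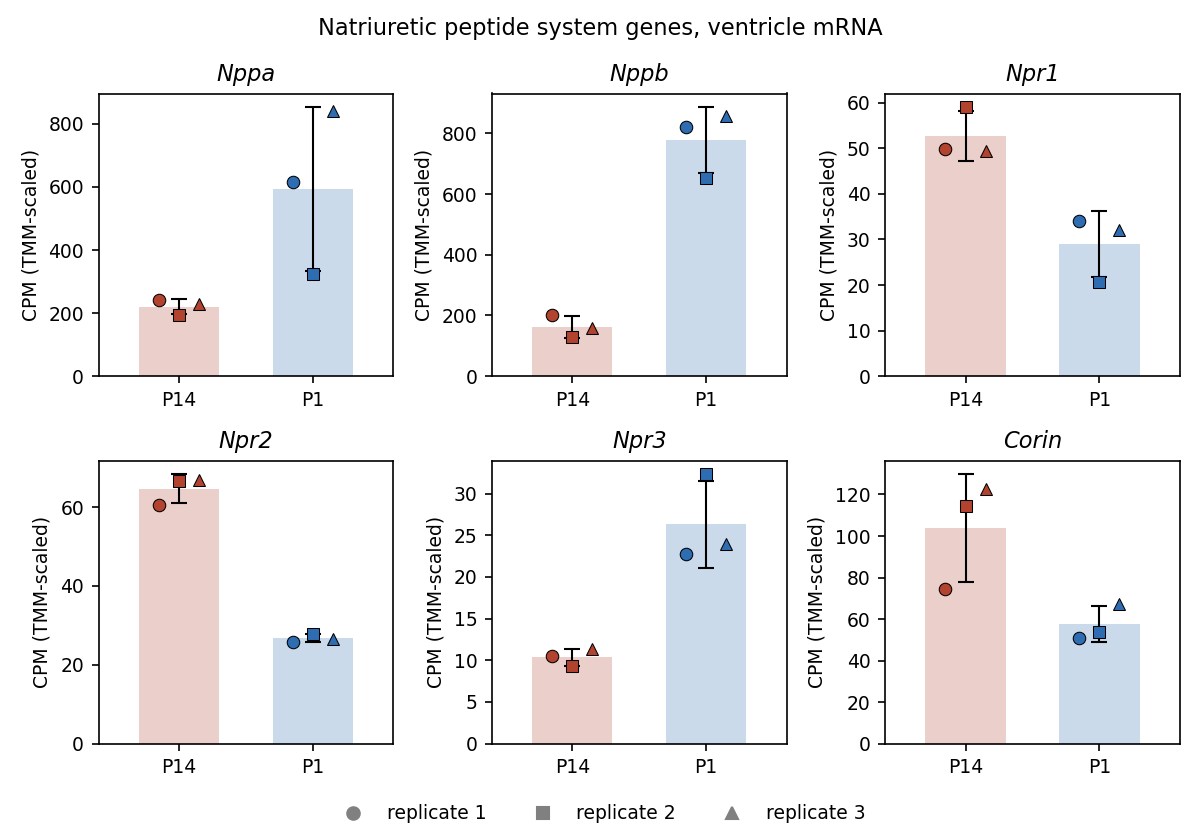
Level of each gene in CPM (linear axis from 0) in the P14 and P1 libraries, where points are libraries, bars are means and error bars are SD (n = 3). Nppa, Nppb and Npr3 are lower and Npr1, Npr2 and Corin are higher in all 3 P14 libraries, and among the P1 libraries replicate 2 (square) is lowest for Nppa, Nppb and Npr1 and highest for Npr3.

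The balance of the hormone transcripts turned between the ages as counted. Nppa had 1.20, 1.51 and 1.46 reads per Nppb read in P14 replicates 1 to 3, against 0.751, 0.495 and 0.981 in P1 replicates 1 to 3. Nppa thus outnumbered Nppb in every P14 library and in no P1 library, and the ages did not overlap. The mean log2 ratio was 0.47 ± 0.18 at P14 and −0.48 ± 0.50 at P1 (SD, n = 3 each), a difference of 0.95 (exact two-sided permutation p = 0.10, the smallest that 3 against 3 libraries can give). Taken as 3 pairs by replicate number, the difference of 0.95 ± 0.33 (SE) had an exact sign-flip permutation p of 0.25, the smallest that 3 pairs can give. This ratio does not depend on scaling between libraries, but it changed with a correction for base composition. After correction for GC content and length the ratios were 0.989, 1.27 and 1.24 at P14 and 0.737, 0.792 and 1.06 at P1, where 1 P14 library fell within the P1 range, and the difference shrank to 0.44 (exact permutation p = 0.20). Without P1 replicate 2 the uncorrected difference was 0.69. Reads of Gm13054 counted under Nppa would enter the ratio as well.

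**Figure D2:**
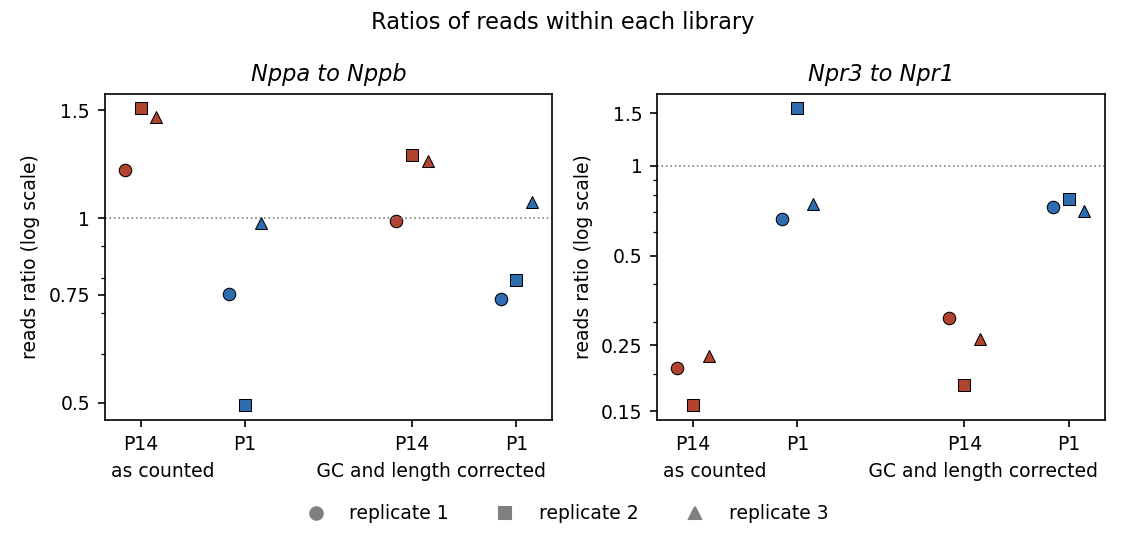
Reads of Nppa per read of Nppb and reads of Npr3 per read of Npr1 in each library (log axis, dotted line at equal reads), as counted and after correction for GC content and length. The Npr3 to Npr1 ratio is lower in all P14 libraries either way, while for Nppa to Nppb the P14 libraries, at 0.989 to 1.27, overlap the P1 libraries, at 0.737 to 1.06, once corrected.

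The genes around the hormone pair did not all change in 1 direction. Of 9 genes of the table within 100 kb of the pair that are reported here, the pair included, 4 fell, 1 rose and 4 did not pass. Among all genes tested 22.0% fell and 21.8% rose. The window was drawn around the pair, so its falls, with the pair included, are not a share comparable with these. The genes that fell were the pair, Gm13054, whose value may hold reads of Nppa, and Clcn6. Apart from the pair and Gm13054, Clcn6 was the only reported neighbour that fell. Clcn6, a chloride and proton exchanger whose start lies 38.1 kb beyond that of Nppa, fell with −0.66 ± 0.24 on the log2 scale (edgeR adjusted p = 0.0372). The collagen lysyl hydroxylase gene Plod1, whose start lies 64.0 kb before that of Nppa, rose with 0.62 ± 0.21 (edgeR adjusted p = 0.0295). The mitochondrial fusion gene Mfn2, the uncharacterised 2510039O18Rik, the pseudogene Gm13156 inside Mfn2 and Agtrap, which binds the angiotensin receptor, had log2 fold changes of 0.27, 0.29, −0.13 and 0.09, and none of them passed (edgeR adjusted p = 0.281 to 0.877). The calls of Clcn6 and Plod1 were fragile: Clcn6 lost its call when P1 replicate 1 or 3 or P14 replicate 1 or 3 was left out, and Plod1 when P1 replicate 3 or any P14 library was. With library totals alone Plod1 also lost its call (0.17, edgeR adjusted p = 0.5996).

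**Figure D3:**
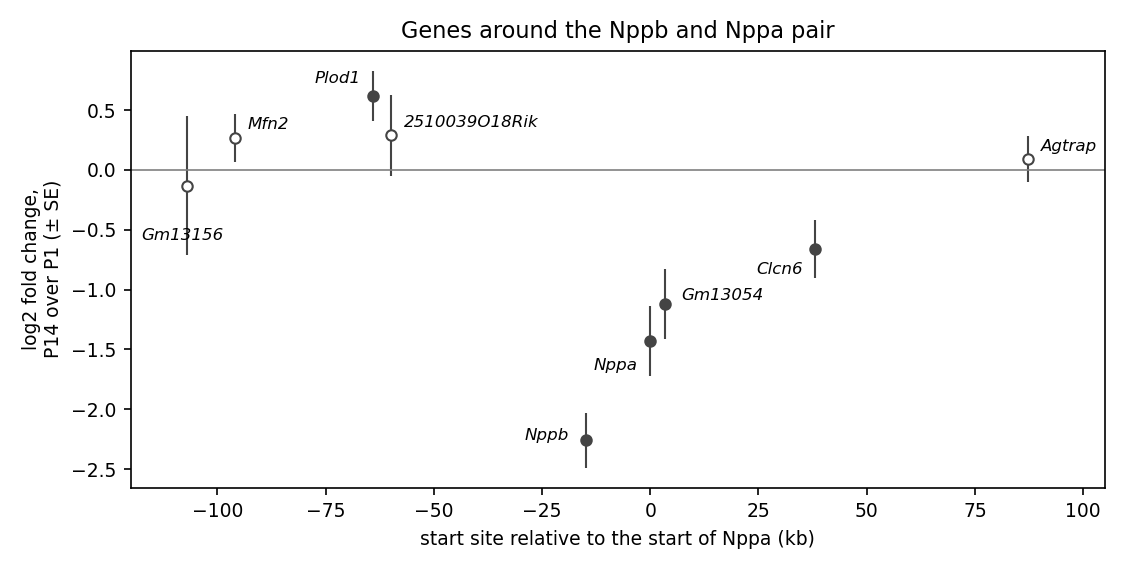
Log2 fold change of the reported genes within 100 kb of the Nppb and Nppa pair (points, with SE), P14 over P1, against the distance in kb from the start of Nppa to the start of the gene. Filled points passed the test, and Nppb (−2.26), Nppa (−1.43) and the overlapping antisense gene Gm13054 (−1.12) lie below the neighbours on either side, which run from −0.66 to 0.62.

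Of the receptors, the cyclase receptors rose. Npr2 (ENSMUSG00000028469; chromosome 4, 43631935 to 43651244, plus strand), the C-type peptide receptor, had 60.5, 66.7 and 66.8 CPM in P14 replicates 1 to 3, against 25.8, 27.8 and 26.6 CPM in P1 replicates 1 to 3. As counted it was the most even of the 6 genes, with coefficients of variation of 5.55% at P14 and 3.64% at P1. Its log2 fold change was 1.27 ± 0.18 (SE, edgeR adjusted p = 8.62e-05), and it was called under each of the 17 other settings tried. After correction for GC content and length the log2 fold change was 0.93. Corrected levels were 53.0, 60.8 and 61.7 CPM at P14 and 25.6, 38.7 and 27.5 CPM at P1. The P1 libraries thus lay farther apart once corrected, with replicate 2 the highest.

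Npr1 (ENSMUSG00000027931; chromosome 3, 90450591 to 90465866, minus strand), the ANP and BNP receptor, had 49.9, 59.1 and 49.3 CPM in P14 replicates 1 to 3, against 34.1, 20.7 and 32.2 CPM in P1 replicates 1 to 3. All P14 values lay above all P1 values, and P1 replicate 2 was the lowest of the 6 libraries. The log2 fold change was 0.87 ± 0.22 (SE, edgeR adjusted p = 0.00583). Npr1 has the highest transcript GC content of the 6 genes, 57.4%, and its change shrank with the correction for GC content and length: corrected levels were 41.8, 50.4 and 42.2 CPM at P14 and 33.8, 33.7 and 34.3 CPM at P1, with 0.40 on the log2 scale (edgeR adjusted p = 0.0357). With library totals alone it was 0.41 and did not pass (edgeR adjusted p = 0.181). Exons of the antisense gene Gm16048 overlap 11.7% of the Npr1 exon bases, and its reads equalled 13.8% to 16.6% of those of Npr1 at P14 and 11.0% to 13.3% at P1.

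Npr3 (ENSMUSG00000022206; chromosome 15, 11839896 to 11907287, minus strand), the clearance receptor, went the other way. It had 10.5, 9.29 and 11.3 CPM in P14 replicates 1 to 3, against 22.7, 32.3 and 23.9 CPM in P1 replicates 1 to 3. P1 replicate 2 was the highest P1 library, and the gap between the ages was wider than the spread within either. The log2 fold change was −1.34 ± 0.23 (SE, edgeR adjusted p = 3.30e-04). Npr3 has the lowest transcript GC content of the 6 genes, 44.0%, and after correction for GC content and length the P1 libraries came together at 24.6, 26.0 and 24.1 CPM, against 12.9, 9.24 and 11.1 CPM at P14 (log2 fold change −1.16).

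Npr3 is expressed in the endocardium among other cells, and endocardial markers did not move in 1 direction. Of 6 tested 2 rose, 2 fell and 2 did not pass, and their summed level was 69.3 to 87.3 CPM at P14 and 58.9 to 76.2 CPM at P1. Gpr126 fell to 0.644 to 1.20 CPM at P14, against 6.74 to 8.86 CPM at P1, and Plvap fell with a log2 fold change of −1.59, or −2.27 after correction for GC content and length. Tmem100 and Cytl1 rose with 2.24 and 1.37, and Nfatc1, the defining transcription factor of the endocardium, averaged 18.5 CPM at P14 and 17.1 CPM at P1 and did not pass. No listed endocardial marker in the table was at 0. The part of these cells in the fall of Npr3 was not tested.

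Within each library the clearance receptor lost ground to Npr1. Npr3 had 0.210, 0.157 and 0.230 reads per Npr1 read in P14 replicates 1 to 3, against 0.665, 1.56 and 0.743 in P1 replicates 1 to 3. The ages did not overlap, and P1 replicate 2 stood above the others. The mean log2 ratio was −2.35 ± 0.29 at P14 and −0.12 ± 0.67 at P1 (SD, n = 3 each), a difference of −2.22 (exact two-sided permutation p = 0.10, the smallest possible, and exact sign-flip permutation p = 0.25 over the 3 pairs, also the smallest possible). After correction for GC content and length the P1 ratios lay closer together, at 0.726, 0.773 and 0.704, against 0.308, 0.183 and 0.263 at P14, and the ages still did not overlap (difference −1.58, exact permutation p = 0.10). Per exon length and as counted, Npr3 made up 4.56%, 3.58% and 4.67% of the summed level of the 3 receptors at P14, against 16.0%, 25.1% and 17.0% at P1. These shares were not corrected for GC content, and the 25.1% belongs to P1 replicate 2, which stood apart by base composition.

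Corin (ENSMUSG00000005220; chromosome 5, 72300025 to 72504473, minus strand), the protease that activates ANP, had 74.4, 114 and 123 CPM in P14 replicates 1 to 3, against 51.1, 54.0 and 67.4 CPM in P1 replicates 1 to 3. The ages did not overlap, but P14 replicate 1 lay much closer to the P1 libraries than the other P14 libraries did. The log2 fold change was 0.85 ± 0.22 (SE, edgeR adjusted p = 0.00644), and 1.00 after correction for GC content and length. With library totals alone it was 0.40 and did not pass (edgeR adjusted p = 0.186). Over the median of all genes under that scaling, −0.47, both Corin and Npr1 were still higher. The antisense gene Gm20647 overlaps 2.72% of the Corin exon bases and had 17 to 60 counts per library.

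Levels of different genes were compared as RPKM, the CPM per kilobase of exon. At P14 the order of mean level was Nppa at 255 RPKM, Nppb at 207, Corin at 19.2, Npr2 at 13.9, Npr1 at 11.0 and Npr3 at 1.10 RPKM. At P1 it was Nppb at 996 RPKM, Nppa at 687, Corin at 10.6, Npr1 at 6.06, Npr2 at 5.73 and Npr3 at 2.80 RPKM. Neighbours in these orders whose ranges over the libraries overlapped were Nppa with Nppb at both ages, Corin with Npr2 at P14, and Npr1 with Npr2 at P1. As counted, within libraries Nppa lay above Nppb in all 3 at P14 and below it in all 3 at P1. After correction for GC content and length, P14 replicate 1 had 0.989 Nppa reads per Nppb read, so there the order did not hold. The Nppa levels may also hold reads of Gm13054. Corin lay above Npr2 in all 3 at P14 as counted, while the order of Npr1 and Npr2 at P1 turned in replicate 2. Among 14128 genes with a length, Nppb ranked between 250 and 329 in the P14 libraries and between 39 and 44 in the P1 libraries. Nppa ranked between 203 and 255 at P14 and between 53 and 104 at P1. The summed level of the cyclase receptors Npr1 and Npr2 was 23.4, 26.6 and 24.6 RPKM at P14, against 12.7, 10.3 and 12.4 RPKM at P1.

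Genes around the system were read from 5 lists, on peptide processing, guanylyl cyclases, cGMP-dependent kinases and their targets, cGMP phosphodiesterases, and transcription factors of Nppa and Nppb. Of 66 listed genes 53 were in the table and tested, and 8 rose (15.1%), 10 fell (18.9%) and 35 did not pass. These shares lie below the 21.8% and 22.0% of all genes, and the median log2 fold change of the lists together, −0.01, was that of all genes. With library totals alone 4 rose and 22 fell. The C-type peptide gene Nppc and the Npr3 ligand gene Ostn were among the 13 listed genes not analysed here.

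Of 6 genes of peptide processing and breakdown 1 rose, 1 fell and 4 did not pass. Pcsk6, the proprotein convertase that activates corin, rose to 60.8, 43.5 and 60.8 CPM in P14 replicates 1 to 3, against 22.1, 15.9 and 18.5 CPM in P1 replicates 1 to 3. Its log2 fold change was 1.55 ± 0.22 (edgeR adjusted p = 7.03e-05), a rise in the same direction as that of Corin. Dpp4, a peptidase that trims BNP, fell with −1.23 ± 0.29 (edgeR adjusted p = 0.00335). Furin, a convertase able to cut the BNP precursor, averaged 64.2 ± 9.46 CPM at P14 and 59.2 ± 21.3 CPM at P1 and did not pass, and the sign of its log2 fold change of 0.12 turned with the correction for GC content, with totals alone and without P1 replicate 2. Mme, which encodes the peptide-degrading enzyme neprilysin, was low, with 20 to 24 counts per library at P14 and 8 to 30 at P1, and did not pass (edgeR adjusted p = 0.196).

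Downstream, the targets of cGMP signalling were divided. Of 8 genes of cGMP-dependent kinases and targets, 4 rose, 2 fell and 2 did not pass, with a median log2 fold change of 0.38. Hspb6, a small heat shock protein phosphorylated by cyclic nucleotide-dependent kinases, rose with 2.37 ± 0.21 (edgeR adjusted p = 1.01e-06), to 906 ± 142 CPM at P14, against 175 ± 7.85 CPM at P1. Mrvi1, a kinase substrate that restrains calcium release from stores, rose with 1.63 ± 0.24. Rgs2, a brake on G protein signalling, and Pln (phospholamban), the inhibitor of the sarcoplasmic reticulum calcium pump, rose with 1.54 ± 0.24 and 0.63 ± 0.20, and were named after their values were seen. Gtf2ird1, a transcription factor of the TFII-I family, and Vasp, an actin regulator, fell with −1.63 ± 0.25 and −0.94 ± 0.23. The kinase gene Prkg1 itself had 10 to 23 counts per library at P14 and 22 to 58 at P1, with 1.84 ± 1.13 CPM at P14 and 3.01 ± 0.938 CPM at P1, and did not pass (edgeR adjusted p = 0.223), although it passed with library totals alone (−1.21, edgeR adjusted p = 0.0149).

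The other source of cGMP, the soluble guanylyl cyclase that nitric oxide activates, did not pass in either subunit. Gucy1a3 averaged 19.3 ± 2.58 CPM at P14 and 17.9 ± 4.77 CPM at P1 (edgeR adjusted p = 0.776). Gucy1b3 averaged 14.7 ± 0.735 CPM at P14 and 21.2 ± 3.43 CPM at P1, did not overlap between the ages and missed the threshold (log2 fold change −0.53 ± 0.22, edgeR adjusted p = 0.0585). Gucy1b3 passed with upper quartile scaling (−0.60, edgeR adjusted p = 0.0381), with library totals alone (−1.01, 0.00203) and with a filter of 5 CPM in 3 libraries (−0.55, 0.0484). At an unadjusted p under 0.05, 0 of these 2 genes rose and 1 fell, and DESeq2 and voom called 0 in either direction. Of 10 genes listed as cGMP phosphodiesterases 1 rose, 1 fell and 8 did not pass. Among the last was Pde6d, whose product is a subunit that does not itself hydrolyse cGMP. Pde2a, which cGMP stimulates, rose to 99.0 ± 10.2 CPM at P14, against 49.3 ± 10.0 CPM at P1 (edgeR adjusted p = 0.00127), and Pde3b, which cGMP inhibits, fell to 2.95 ± 1.33 CPM, against 7.81 ± 2.08 CPM at P1 (edgeR adjusted p = 0.00387). Pde3a, the other listed gene of the cGMP-inhibited family, was higher than Pde3b, at 15.3 ± 8.34 CPM at P14 and 10.5 ± 1.91 CPM at P1. It did not pass (0.54 ± 0.39 on the log2 scale, edgeR adjusted p = 0.296). The call of Pde2a ended with library totals alone (0.57, edgeR adjusted p = 0.0524). Pde5a and Pde9a, the phosphodiesterases specific for cGMP, had log2 fold changes of 0.25 ± 0.28 and −0.29 ± 0.29 and did not pass, although Pde9a passed with library totals alone (−0.73, edgeR adjusted p = 0.0496).

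Among 27 transcription factors and corepressors known to act on Nppa or Nppb, 6 fell (22.2%), 2 rose (7.41%) and 19 did not pass. Over all genes tested 22.0% fell, about the same share, and 21.8% rose. The median log2 fold change of the list was −0.01. Gata6 fell to 32.7 ± 2.63 CPM at P14, against 88.1 ± 3.68 CPM at P1, with −1.43 ± 0.18 on the log2 scale (edgeR adjusted p = 3.21e-05). The related Gata4 fell to 87.1 ± 18.4 CPM, against 178 ± 18.6 CPM at P1 (−1.03 ± 0.21), and was named after its value was seen. The T-box factor Tbx20 and the ventricular homeobox factor Irx4 fell with −1.12 ± 0.31 and −1.08 ± 0.20, and the call of Tbx20 ended without P1 replicate 2 (edgeR adjusted p = 0.0635). After correction for GC content and length Irx4 was at −1.89 (edgeR adjusted p = 7.96e-05). Hand1, a factor of the embryonic left ventricle, fell as well, with 1 count over the 3 P14 libraries, against 53, 25 and 14 counts in P1 replicates 1 to 3. Tbx3, a repressor of chamber genes, rose with 0.70 ± 0.25 (edgeR adjusted p = 0.0377), a call that ended with upper quartile scaling, with totals alone, with the GC correction and without P1 replicate 1 or 3 or P14 replicate 2 or 3. The corepressor Hdac5 was the other gene of the list that rose (0.67 ± 0.26, edgeR adjusted p = 0.0481), close to the threshold. The factor Nkx2-5, a known activator of Nppa, did not pass (0.50 ± 0.50, edgeR adjusted p = 0.456). Its SD at P1, 11.6 CPM around a mean of 18.5, was wide.

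**Figure D4:**
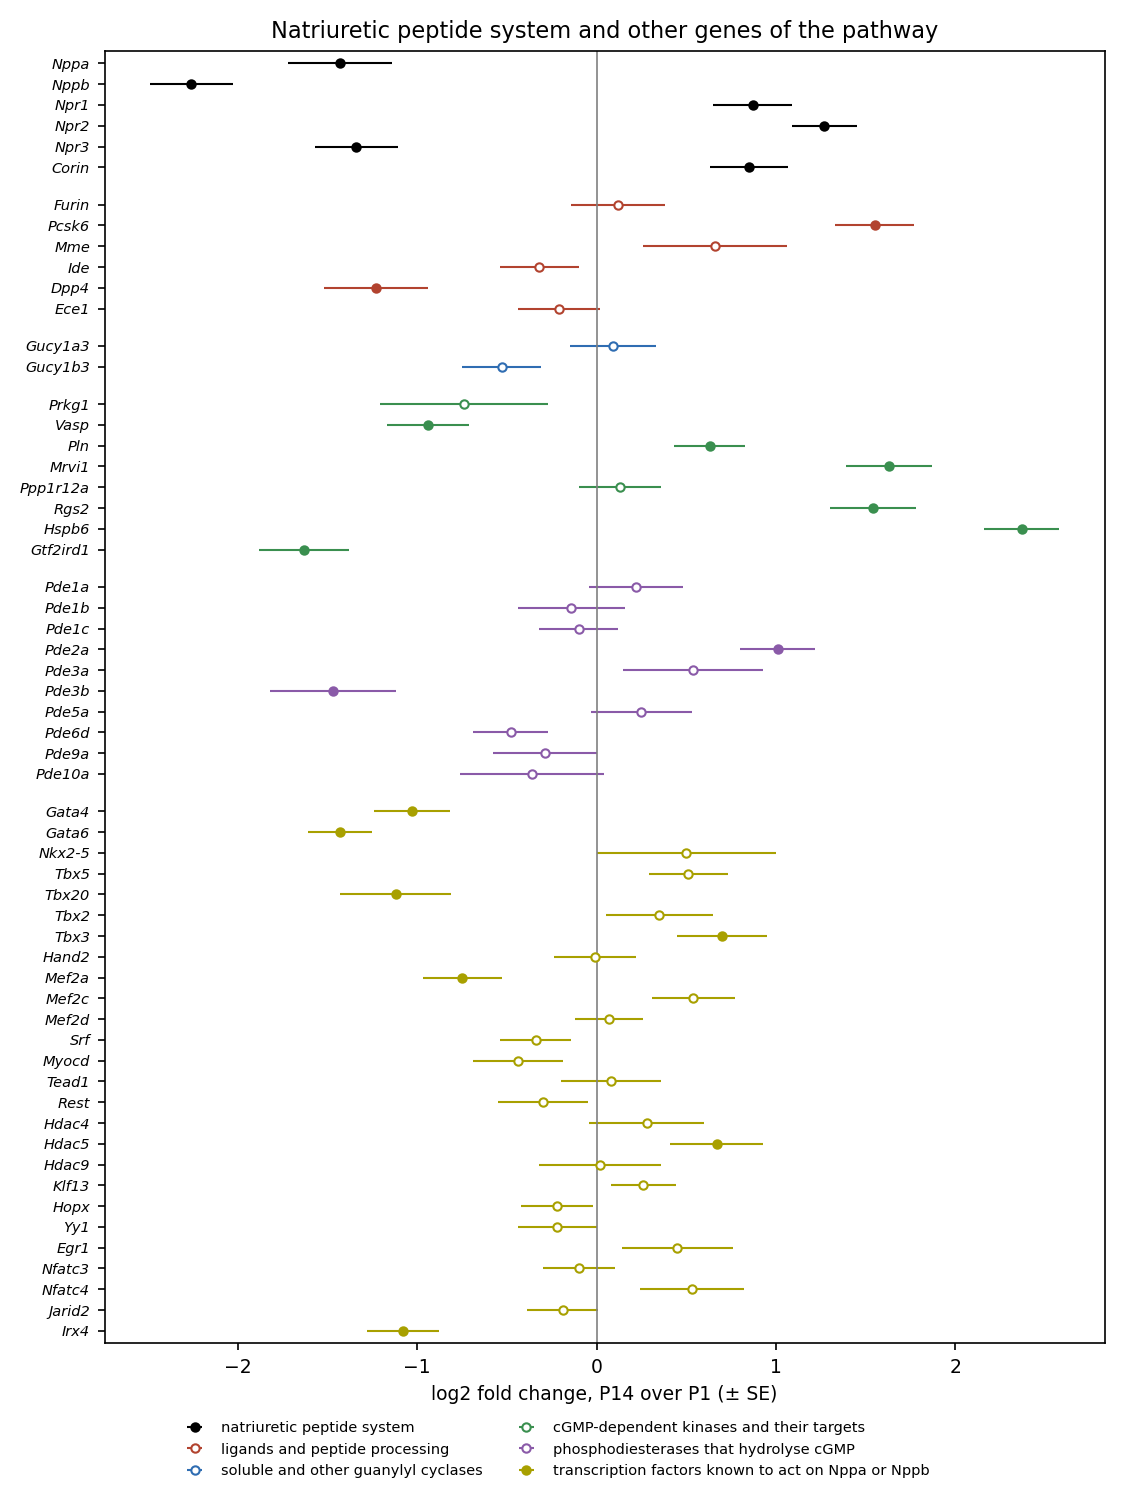
Log2 fold change, P14 over P1, with SE, of the 6 natriuretic peptide system genes and of the tested genes of the 5 lists around them, with filled points for genes that passed the test. Hand1, with 1 count over the 3 P14 libraries, is not drawn. The hormones and Npr3 lie left of 0, and Npr1, Npr2, Corin, Pcsk6, Mrvi1, Rgs2 and Hspb6 lie right of it.

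Markers of other cells of the ventricle moved in several directions. Of 10 endothelial markers 5 rose and 5 did not pass, including rises of Fabp4 (0.86 ± 0.21) and Egfl7 (1.16 ± 0.20), and their summed level was 2289 to 2690.5 CPM at P14 and 1526 to 1549.8 CPM at P1. With library totals alone Fabp4 lost its call (0.39, edgeR adjusted p = 0.202). Of 10 smooth muscle and pericyte markers 6 rose, 2 fell and 2 did not pass, with Rgs5 at 1.94 ± 0.22 and Acta2 at −0.74 ± 0.23, a call lost without P1 replicate 3 or P14 replicate 2 or 3, summed to 2004 to 2339 CPM at P14 and 1958 to 2833 CPM at P1. Both cell types express Npr1, and their part in its rise was not tested. Of 10 fibroblast markers 2 rose, 1 fell and 7 did not pass, Col3a1 and Col1a1 among the last, with sums of 1703 to 2423 CPM at P14 and 1621 to 2199 CPM at P1. Of 5 epicardial markers tested 3 fell and 2 did not pass (Aldh1a2 −1.49 ± 0.25, Tbx18 −1.85 ± 0.28), with sums of 15.5 to 21.6 CPM at P14 and 36.9 to 55.6 CPM at P1. Of 8 macrophage markers 7 rose and 1 did not pass (C1qb 1.81 ± 0.28, Csf1r 1.58 ± 0.20), with sums of 246 to 292 CPM at P14 and 55.7 to 80.4 CPM at P1. Of 5 erythroid markers tested 4 rose and 1 did not pass, with sums of 565 to 964 CPM at P14 and 110 to 302 CPM at P1. The erythroid Hba-a1 and Hba-a2 (2.11 ± 0.47 and 2.07 ± 0.38) are near-identical copies between which reads may be split, and Hba-a1 lost its call without P1 replicate 1 and with the replicate block (edgeR adjusted p = 0.0666). The summed cardiomyocyte markers, whose cells express Nppa, Nppb and Corin, were 78293 to 90457 CPM at P14 and 45093 to 51411 CPM at P1, with Tnnt2 at 0.61 ± 0.21, a call that ended when P14 replicate 1 or 2 or P1 replicate 3 was left out and with library totals alone (0.16, edgeR adjusted p = 0.630).

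For each of the 6 genes, the genes most like it were taken as the 3 with the smallest Euclidean distance between log2 CPM profiles over the 6 libraries, each centred on its own mean, among 8433 genes with a mean of at least 10 CPM over the libraries. For Nppa these were the overlapping Gm13054 (distance 0.413 log2 units), AC137156.1 and Cmtm7. For Nppb they were Incenp (0.145), Ncs1 and Dynlt1-ps1. For Npr1 they were Slc29a1 (0.120), Snapc4 and Arl6ip4, and for Npr2 they were Slc25a4 (0.190), Tef and Eif4e3. For Npr3 they were Nup205 (0.0743), Fbxw11 and 2610002M06Rik, and for Corin they were Ncoa3 (0.248), Srcap and Inpp4a. Among the 6 themselves the closest profiles were Npr2 with Corin (0.757), Npr1 with Corin (0.775) and Npr1 with Npr2 (0.802), while Nppa and Nppb lay 1.38 apart, about as far from each other as either lay from Npr3 (1.36 and 1.41). All profiles share the same 6 libraries, and the distances describe these libraries.

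The age effects held their direction under every setting tried. Over 17 other settings Nppb ranged between −2.70 and −2.11, Nppa between −1.83 and −1.08, Npr3 between −1.82 and −1.16, Npr2 between 0.81 and 1.33, Npr1 between 0.40 and 1.01 and Corin between 0.40 and 1.05 (log2 fold changes). The only calls lost were those of Npr1 and Corin with library totals alone.

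**Figure D5:**
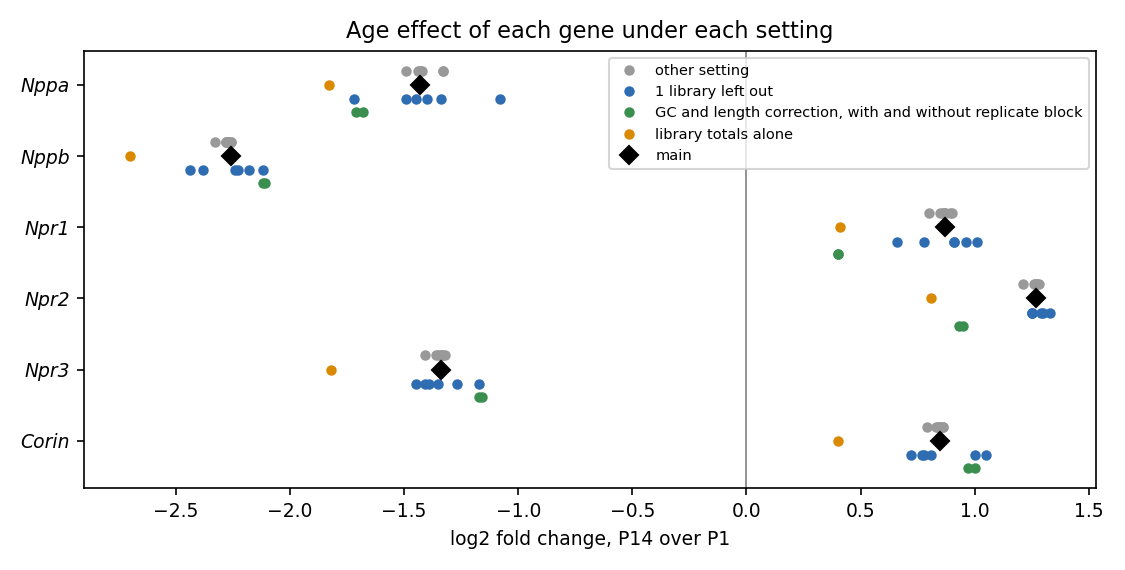
Log2 fold change of each gene, P14 over P1, as reported (diamond) and under 17 other settings. No point crosses 0, and library totals alone move all 6 genes downward, Npr1 to 0.41 and Corin to 0.40.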

How the data were processed

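What the authors deposited is a table of raw read counts, 1 row per gene and 1 column per library, from 36-cycle reads. The submitters' processing notes name the build GRCm38 (mm10), bedtools and edgeR 3.2.4, with no role. An aligner, counter, annotation or strand setting is not stated there. No gene totals under 60 counts over the libraries, so weaker genes are not analysed here. Columns were matched to samples by age and replicate number.

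In R 4.3.3, edgeR 4.0.16 (robust quasi-likelihood F-test, age as the only term, TMM scaling, filterByExpr at a minimum count of 10) tested 14301 of 14495 genes. P-values were two-sided and Benjamini-Hochberg adjusted over all of them, with calls under 0.05. DESeq2 1.42.0 and limma 3.58.1 (voom) were alternatives, as were other scalings and filters, a correction for GC content and length, the replicate block and leaving out each library. SE is the coefficient over the square root of F. Folds are from fitted values, and CPM are TMM-scaled. Gene models were GENCODE M21, where 98.8% of identifiers matched, and promoters RefSeq, where all 6 genes matched. P-values measure the spread between pools.

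Genes were named by rule: the 6 genes, a few pathway genes whatever their result, in each pathway list up to 3 called genes averaging at least 10 CPM with the largest change and 1 against the main direction, 2 abundant markers per cell type, neighbours within 100 kb (1 of them is not reported here) and 3 like profiles per gene. Bmp10, Gpr126, Tmem100, Cytl1, Rgs2, Pln, Gata4, Hand1 and Nkx2-5 were named after their values were seen. So were Stard10, Kcna5, Gja5, Dkk3, Nr2f2, Sln, Pde3a, Pde6d and Hdac5. The genes and lists were chosen with earlier results of these data known, and the GC-corrected ratios were added after the data were seen.

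Replicate numbers were taken as pairing the libraries, because deviations from the age means correlated at 0.295, 0.112 and 0.102 between libraries of the same number, above 0.1 in each, and at −0.214 to 0.09 between others. The values 0.112 and 0.102 lie close to 0.1 and to 0.09. The main fit did not use this pairing, and results with it as a block are given below.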

Additional observations from a re-analysis of the deposited data

How the results depend on the processing

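Depth limits the weak genes most, and P1 replicate 3, the shallowest library, held 5916557 counts. With the replicate number as a block the log2 fold changes were −1.33 for Nppa, −2.28 for Nppb, 0.89 for Npr1, 1.27 for Npr2, −1.32 for Npr3 and 0.83 for Corin, and the ratio differences were 0.95 for Nppa to Nppb and −2.22 for Npr3 to Npr1. Under the block 9 genes of the pathway lists rose and 12 fell, and among named genes Myl7 (edgeR adjusted p = 0.0285) and Gm20647 (0.0363) gained and Hba-a1 (0.0666) lost a call. It changed no other call of a gene named by rule. With library totals alone Npr1 (0.41) and Corin (0.40) lost their calls, 1 of the 6 genes rose, and 4 pathway genes rose and 22 fell. That scaling lowered the log2 fold changes of all 6 genes and took the median of all genes from −0.01 to −0.47. Adjusted p changed as well, for Nppb from 3.56e-06 to 3.53e-15 (edgeR). With the GC and length correction and the replicate block together 16 pathway genes fell, and the cause was not tested. Leaving out 1 library at a time, between 5 and 9 pathway genes rose (5 without P14 replicate 2) and between 9 and 12 fell. The ratio differences then ranged between 0.69 and 1.18 for Nppa to Nppb and between −2.45 and −1.84 for Npr3 to Npr1. Some genes that had not passed turned sign (log2 fold changes). With totals alone the values were −0.36 for Nfatc1, −0.09 for Col3a1, −0.03 for Col1a1, −0.32 for Furin, −0.22 for Pde5a, −0.39 for Gucy1a3, −0.17 for Mfn2, −0.16 for 2510039O18Rik and −0.37 for Agtrap. With the GC and length correction, without and with the block, they were −0.15 and −0.14 for Nfatc1, −0.13 and −0.15 for Col1a1, −0.30 and −0.29 for Furin, 0.13 and 0.04 for Gm13156, −0.35 and −0.33 for 2510039O18Rik, −0.07 and −0.06 for Agtrap, and −0.01 and −0.05 for Srcap. With 1 library left out, Nfatc1 ranged between −0.01 and 0.31, Furin between −0.16 and 0.29, Gucy1a3 between −0.02 and 0.32, Gm13156 between −0.59 and 0.30, and 2510039O18Rik between −0.08 and 0.74. The cause of these turned signs was not tested.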
